A study of Mus musculus with 6 samples.

Results

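The genes described here are the insulin-like growth factor (IGF) ligands Igf1 and Igf2, their receptors Igf1r and Igf2r, and the binding protein genes Igfbp2 to Igfbp7. They were chosen by name, and the probe set that carried exactly 1 gene symbol was taken for each. All 10 of 10 had a probe set, 1 each, among 22180 named genes on the arrays. RNA was measured in primary lung fibroblast cultures of wild-type male C57BL/6 mice aged 8 weeks, enriched from digested whole lung and passaged at most 3 times. Both groups came from these cultures: 3 wells received vehicle and 3 received purmorphamine, an agonist of the Hedgehog signal transducer Smoothened, for 24 h (5um, as the labels spell the dose). The labels describe cells split over wells and do not say how many mice or pools they came from, so p-values reflect well-to-well spread, part or all of which may be technical.

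IGF1 and IGF2 are secreted growth factors that bind the IGF1 receptor, a tyrosine kinase that signals through insulin receptor substrates to PI3 kinase and AKT. The IGF2 receptor, which also carries lysosomal enzymes by their mannose 6-phosphate tags, removes IGF2 from the cell surface. The IGF binding proteins hold the ligands in the extracellular space and either withhold them from the receptor or carry them to it, and proteases such as pappalysin release the ligand again. In the lung, fibroblasts and macrophages are both known sources of IGF1.

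Of the 10 genes, Igfbp4 fell and 0 rose. Igfbp4 encodes a binding protein known mainly as an inhibitor of IGF action, and its signal was 1.81-fold lower with purmorphamine (95% interval 1.61 to 2.03, n = 3 per group). The ligands, both receptors and the other 5 binding protein genes did not pass the test. Beside the members, 9 of 57 other measured genes of the pathway rose and 7 fell, in lists chosen with earlier results known. Pappa, which encodes the pappalysin that cleaves IGFBP4, rose by 0.41 log2 units. Stc1, which encodes stanniocalcin 1, an inhibitor of pappalysins, rose by 0.61. Kazald1, which encodes an IGFBP-related protein, fell by 1.08. Without both arrays numbered 3, Pappa just missed the test (limma adjusted p = 0.0507). A gene was called where the limma test, adjusted by Benjamini-Hochberg over all 22180 genes, gave an adjusted p under 0.05. By that rule 14.3% of all genes were called, 7.18% as higher and 7.16% as lower, so 1 call among 10 members is near the share over the whole array and is not a result about the group. The arrays measured whole cultures, in which fewer cells of a type and less RNA per cell cannot be told apart.

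The 6 arrays had medians of 6.34 to 6.39 and upper quartiles of 8.20 to 8.24 on the log2 scale. On the second principal component, with 13.2% of the variance, both arrays numbered 3, one of each group, stood away from the remaining 4, and values without them are given beside the calls of members and pathway genes, not of markers. Of 15 fibroblast markers, 9 rose and 3 fell, where 7.18% of all genes rose and 7.16% fell. Their summed linear signal was 32992 to 33833 with vehicle and 37169 to 38370 with purmorphamine. Leukocyte markers were bright: 15 of 16 lay above the upper quartile on all 6 arrays, and 1 rose and 6 fell, with summed signals of 69756 to 70181 and 64092 to 66220. The list was split, with 7 differences above and 9 below 0. Itgam, Csf1r and Mrc1 fell by 1.46, 0.63 and 0.62, and Itgax rose by 0.31. Ptprc, Cd68 and Lyz2, at 0.07, 0.13 and 0.05, were among the 9 not called. Of 10 smooth muscle and pericyte markers 2 rose and 6 fell (37167 to 37501 and 31993 to 32532). Of 9 endothelial markers 4 rose (4269 to 4547 and 4936 to 5154), of 10 epithelial markers 1 rose (4393 to 4515 and 4487 to 4533), and of 6 mesothelial markers 0 were called by limma and 1 had an unadjusted p under 0.05 (1246 to 1288 and 1250 to 1303). The shares of 7.18% and 7.16% of all genes apply to each of these lists, and a linear sum weighs the brightest genes of its list most. The part of these cell types in the values below was not tested.

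Since Igfbp4 is the member that passed the test, the sequence upstream of its start is shown. It covers the 250 bases before the RefSeq start site on the forward strand of chr11:99040994-99041243, in GRCm38.p6, and its capitals mark the motif TATAAA.

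Igfbp4 upstream: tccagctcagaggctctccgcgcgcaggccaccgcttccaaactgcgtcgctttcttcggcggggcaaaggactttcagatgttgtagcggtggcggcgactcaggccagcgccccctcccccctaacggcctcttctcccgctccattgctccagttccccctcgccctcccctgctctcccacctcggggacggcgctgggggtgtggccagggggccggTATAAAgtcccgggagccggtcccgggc

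The TATAAA starts 28 bases before the annotated start. It is a TATA box motif, which 12.4% of 32851 promoter windows of this length hold on either strand, as do 2 of the members' 14 windows (those of Igfbp4 and Igfbp6). The Gli binding motif GACCACCCA and its shorter core CCACCCA, searched on both strands with the shorter lying within the longer, had no match in the 14 windows of the 10 members. They occur in 0.225% and 8.11% of all windows. A match is only a match of letters, and the absence of one in these windows says nothing of binding elsewhere. GGGCGG, the GC box, was found in 6 of the 14 windows against 32.7% of all windows, and CACGTG, an E-box, in 2 of the 14 against 6.02%.

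Igf1, the main IGF of adult mesenchyme and macrophages, read 10.09, 9.99 and 10.05 on the vehicle arrays and 10.07, 10.13 and 10.13 on the purmorphamine arrays. The groups overlap, since the highest vehicle array exceeds the lowest purmorphamine array. The difference was 0.07 (SE 0.053, 95% interval -0.06 to 0.20, limma adjusted p = 0.46). Igf2, the ligand that dominates in fetal growth, read 6.84, 6.75 and 6.91 with vehicle and 6.75, 6.96 and 6.74 with purmorphamine. The highest and the lowest of these Igf2 values both came from purmorphamine wells. Its difference was -0.020 (interval -0.21 to 0.17, limma adjusted p = 0.906), and its sign turned without vehicle replicate 3 (0.018) or purmorphamine replicate 1 (0.014) or 3 (0.016).

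Igf1r encodes the receptor that carries the growth signal of both ligands. Its values were 10.10, 10.17 and 10.19 with vehicle and 9.95, 9.86 and 10.02 with purmorphamine. All 3 purmorphamine wells lay below all 3 vehicle wells, as in 17.1% of all genes. The difference of -0.21 (SE 0.061, interval -0.35 to -0.07) had an unadjusted p of 0.0109 and a limma adjusted p of 0.0663, just outside the threshold, where the largest unadjusted p of a called gene was 0.00717. Igf1r passed it with the dimmest genes left out (limma adjusted p = 0.0258), with a linear offset (0.0187) and with a variance trend and robust fit (0.00674). With any 1 array left out it did not, at 0.0758 to 0.170.

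Igf2r, the clearance and lysosomal sorting receptor, read 10.25, 10.27 and 10.42 with vehicle and 10.38, 10.35 and 10.41 with purmorphamine. The purmorphamine wells all lay within the range of the vehicle wells. The difference was 0.07 (SE 0.063, interval -0.08 to 0.22, limma adjusted p = 0.552).

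**Figure D1:**
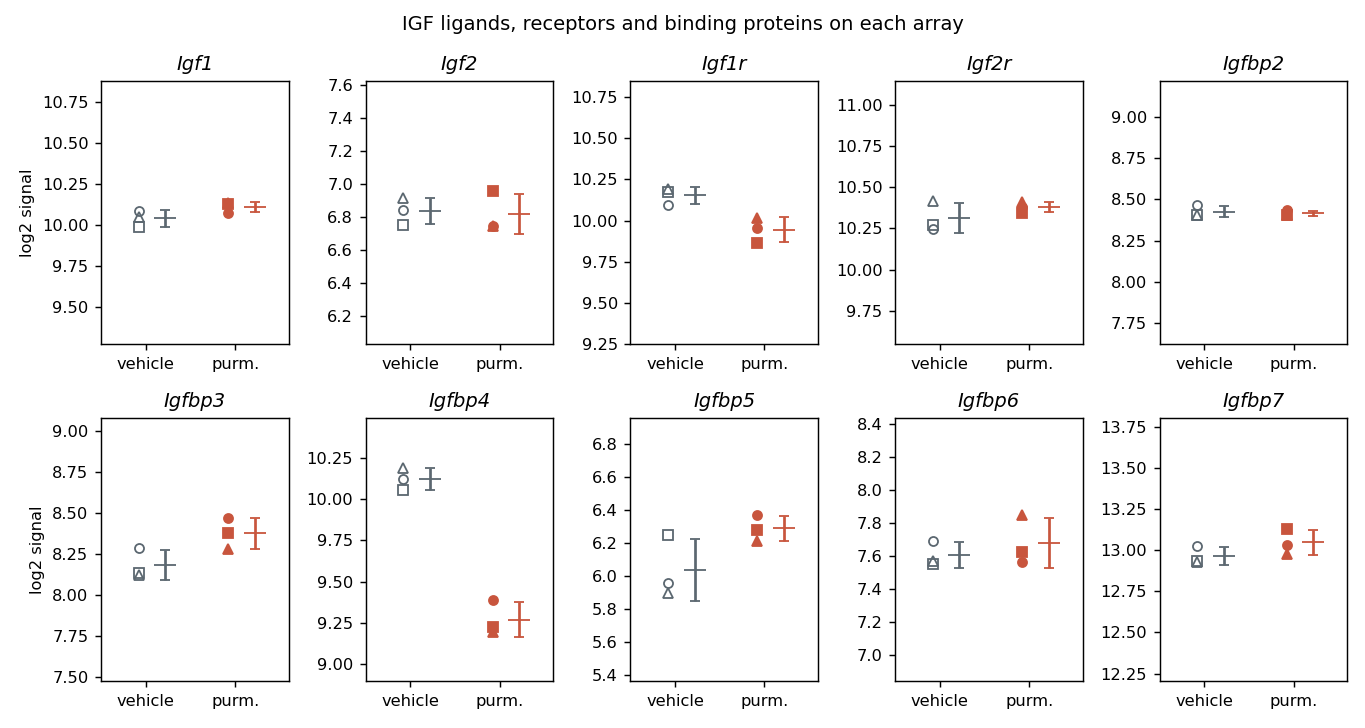
Log2 signal of the 10 genes on each of the 6 arrays; open symbols are vehicle and filled symbols purmorphamine (purm.), circle, square and triangle are replicates 1, 2 and 3, and bars give the mean and SD (n = 3). Each panel spans the same height in log2 units around its own mean, so changes but not levels can be compared between panels. Igfbp4 moves from about 10.12 to 9.27, and Igf1r is the other gene whose groups do not overlap, as in 34.2% of all genes.

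Igfbp4 read 10.13, 10.06 and 10.19 with vehicle and 9.39, 9.22 and 9.20 with purmorphamine. The groups lay apart by far more than the spread within either, with 10.12 ± 0.066 against 9.27 ± 0.10 (SD, n = 3). The gene fell by 0.85 log2 units (SE 0.071, interval -1.02 to -0.69, limma adjusted p = 6.33e-04). This interval lies wholly below those of all other 9 members, whose lowest bound was -0.35. By size it was the fall of rank 117 among the 1588 genes that fell. It passed under every alternative tried. With 1 array left out the limma adjusted p was 0.00185 to 0.00496 and the difference -0.91 to -0.82, and without both arrays numbered 3 they were 0.0205 and -0.78.

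Igfbp3, the main IGF carrier of serum, read 8.29, 8.13 and 8.12 with vehicle and 8.47, 8.38 and 8.28 with purmorphamine. Vehicle replicate 1 lay just above purmorphamine replicate 3, so the groups overlap. The difference was 0.19 (SE 0.074, interval 0.02 to 0.37, limma adjusted p = 0.141).

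Igfbp5, a matrix-binding member that pappalysins also cleave, read 5.96, 6.25 and 5.90 with vehicle and 6.37, 6.28 and 6.22 with purmorphamine. Vehicle replicate 2 stood above the other vehicle wells and overlapped the purmorphamine wells. The difference was 0.25 (SE 0.10, interval 0.02 to 0.49, limma adjusted p = 0.152). Without vehicle replicate 2 it was 0.36 and passed (limma adjusted p = 0.0319), while with each of the other arrays left out the adjusted p was 0.193 to 0.335. The signal lay near the array medians.

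Igfbp2, Igfbp6 and Igfbp7 showed the least change of the binding protein genes. Igfbp2 read 8.46, 8.41 and 8.40 with vehicle and 8.43, 8.40 and 8.41 with purmorphamine, the narrowest spread among the members. Its difference was -0.010 (interval -0.13 to 0.11, limma adjusted p = 0.924). Igfbp6, which prefers IGF2 as ligand, read 7.69, 7.55 and 7.57 against 7.56, 7.62 and 7.85, where purmorphamine replicate 3 alone lay above the vehicle range. The Igfbp6 difference was 0.07 (interval -0.13 to 0.28, limma adjusted p = 0.650), and -0.012 without that array. Igfbp7, a secreted vessel and matrix protein that binds IGFs only weakly, read 13.03, 12.94 and 12.93 against 13.03, 13.13 and 12.98, again with overlap. Its difference was 0.08 (interval -0.06 to 0.23, limma adjusted p = 0.446).

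Across the 10 genes the median difference was 0.07, against -0.0084 over all genes, and 6 differences were above and 4 below 0. The groups did not overlap in 2 of 10 members (Igf1r and Igfbp4, both lower), against 34.2% of all genes. An unadjusted p under 0.05 was reached by 4 of 10 members, against 28.2% of all genes. For the 9 members not called the widest bound of an interval was 0.49, that of Igfbp5, or 1.40-fold. These intervals limit the size of the differences in array signal and do not show that the genes were alike in both groups.

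The other genes of the pathway were taken as 6 lists of 64 genes by role, of which 57 had a named probe set. Of these 57, 9 rose and 7 fell, or 28.1% called, against 14.3% of all genes called, 7.18% as higher and 7.16% as lower. That the lists were chosen with earlier results of these arrays known means that this share is a description only. No gene of the nearest relatives was called: of 6 measured other ligands, carriers and receptors, including Igfbp1, Igfals and Ins2, the largest difference was that of Insr, the insulin receptor, at 0.20 (limma adjusted p = 0.0689, chosen after its values were seen), and 1 of the 6 had an unadjusted p under 0.05. Of the 6 genes, 4 lay below the array median on all 6 arrays, Igfbp1, Igfals and Ins2 among them.

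The list of pappalysins, HtrA serine proteases and stanniocalcins gave 3 rises and 0 falls among 7 genes, with a median difference of 0.19 and all 7 differences above 0. Over all genes 7.18% rose and 48.0% of differences were above 0, and this list was chosen with earlier results known. Pappa read 8.30, 8.25 and 8.24 with vehicle and 8.65, 8.67 and 8.71 with purmorphamine. All purmorphamine wells were higher, as in 17.1% of all genes. Pappa rose by 0.41 (SE 0.050, limma adjusted p = 0.00253), or 1.33-fold (interval 1.23 to 1.45). Stc1 read 7.92, 7.72 and 7.67 against 8.43, 8.43 and 8.30. It rose by 0.61 (SE 0.082, limma adjusted p = 0.00364), or 1.53-fold (interval 1.34 to 1.75). Htra4, a secreted serine protease with an IGFBP-type domain, read 7.23, 7.14 and 7.36 against 7.63, 7.80 and 7.68 and rose by 0.46 (limma adjusted p = 0.00903). With any 1 array left out these 3 genes passed, at limma adjusted p of 0.0048 to 0.036. Without both arrays numbered 3, Pappa just missed the threshold at 0.0507, while Stc1 (0.0373) and Htra4 (0.0464) passed. Pappa2, Stc2, Htra1 and Htra3 differed by 0.19, 0.11, 0.03 and 0.19 and did not pass.

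**Figure D2:**
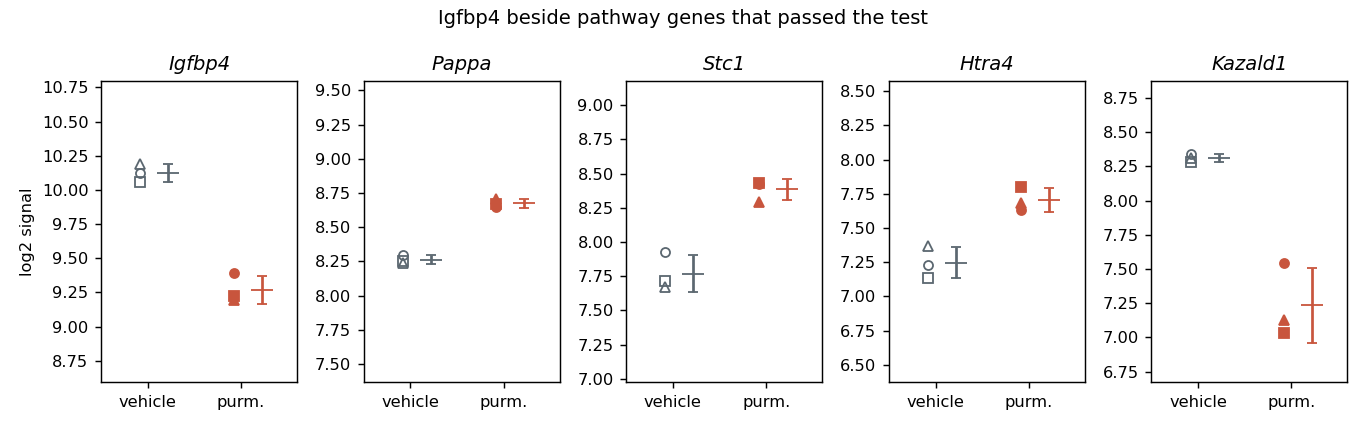
Log2 signal of Igfbp4, the protease genes Pappa and Htra4, the pappalysin inhibitor gene Stc1 and the IGFBP-domain gene Kazald1 on each of the 6 arrays; open symbols are vehicle and filled symbols purmorphamine (purm.), circle, square and triangle are replicates 1, 2 and 3, and bars give the mean and SD (n = 3). In all 5 panels, which span the same height in log2 units, the groups do not overlap: Igfbp4 and Kazald1 are lower and Pappa, Stc1 and Htra4 higher with purmorphamine. These genes were picked among those that passed the test, and the groups do not overlap in 34.2% of all genes.

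Other secreted or membrane proteins that share the IGFBP-type domain moved in both directions: of 9, 2 rose and 3 fell, with a median of -0.05. That is 55.6% called, against 14.3% of all genes, in a list chosen with earlier results known. Kazald1, an IGFBP-related protein with a Kazal domain, read 8.34, 8.29 and 8.31 with vehicle and 7.55, 7.03 and 7.13 with purmorphamine. Its spread was wider with purmorphamine (SD 0.27) than with vehicle (0.028). It fell by 1.08 (SE 0.13, limma adjusted p = 0.00232), or 2.11-fold (interval 1.71 to 2.61). Of the matricellular CCN genes, Ccn3 rose by 0.46 (limma adjusted p = 0.00411) and Ccn1 fell by 0.37 (0.00560). Crim1, a membrane protein that binds BMPs, fell by 0.29 (0.0141), and Ccn5, chosen after its values were seen, rose by 0.24 (0.0425). Crim1 missed the test without vehicle replicate 3, purmorphamine replicate 1 or purmorphamine replicate 3 (limma adjusted p 0.052 to 0.054). Ccn5 missed it without any 1 array but vehicle replicate 1 (0.0937 to 0.121) and after median centring (0.0581). Without both arrays numbered 3, Kazald1 (0.0477) and Ccn3 (0.0264) passed and Ccn1 (0.0681), Crim1 (0.130) and Ccn5 (0.236) did not.

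Downstream of the receptor, 2 of 19 measured signal transducer genes rose and 2 fell, with a median of 0.05. That is 21.1% of the list called, against 14.3% of all genes. Ptpn1, the phosphatase PTP1B that dephosphorylates the insulin and IGF1 receptors, fell by 0.40 (SE 0.051, limma adjusted p = 0.00286). All its purmorphamine wells (9.06, 9.13 and 9.10) lay below all vehicle wells (9.48, 9.48 and 9.54), as in 17.1% of all genes. Irs1, the docking protein of the receptor, fell by 0.25 (0.0447), and the PI3 kinase catalytic subunit genes Pik3cb and Pik3ca rose by 0.28 (0.0153) and 0.25 (0.0279). The Irs1 call rested on the brighter of its probe sets: their mean differed by -0.12 (limma adjusted p = 0.302). Irs1 also missed the test after quantile normalization (0.0552) and without any 1 array but purmorphamine replicate 3 (0.0708 to 0.138). Pik3ca missed it without any 1 array but vehicle replicate 3 (0.0594 to 0.0928), and Pik3cb without vehicle replicate 1, vehicle replicate 3 or purmorphamine replicate 3 (0.0515 to 0.0560). Without both arrays numbered 3, Ptpn1 had an adjusted p of 0.0516, and Irs1, Pik3ca and Pik3cb 0.113, 0.109 and 0.124. The kinases Akt1 and Akt2, with -0.13 and 0.0044, and Irs2, with -0.0039, did not pass.

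Among 8 measured regulators of ligand expression, Jak2, the kinase of the growth hormone receptor, rose by 0.24 (limma adjusted p = 0.0284), and Igf2bp3, an RNA-binding protein of the Igf2 transcript, fell by 0.28 (0.0216). Jak2 missed the test without any 1 array but purmorphamine replicate 2 (0.0529 to 0.0903) and Igf2bp3 without any 1 array but vehicle replicate 3 (0.0569 to 0.0752). The growth hormone receptor gene Ghr differed by -0.10 and Stat5b by 0.05, and neither passed. Of 8 genes of mannose 6-phosphate sorting, the trafficking route of Igf2r, the adaptor gene Gga2 rose by 0.37 (0.00655) and Nagpa, the enzyme that uncovers the tag, fell by 0.27 (0.0237). Averaging its probe sets brought the Gga2 difference to 0.19 and its adjusted p to 0.0702. Nagpa missed it without either vehicle replicate 2 or 3, or either purmorphamine replicate 1 or 3 (0.0638 to 0.0777). Without both arrays numbered 3, Gga2 passed at 0.0469, and Nagpa (0.172), Jak2 (0.195) and Igf2bp3 (0.0751) did not. M6pr, the smaller mannose 6-phosphate receptor, differed by -0.09 and did not pass. Each of both lists thus had 1 rise and 1 fall among 8 genes. Over all genes 14.3% were called, 7.18% as higher and 7.16% as lower, and both lists were chosen with earlier results known.

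**Figure D3:**
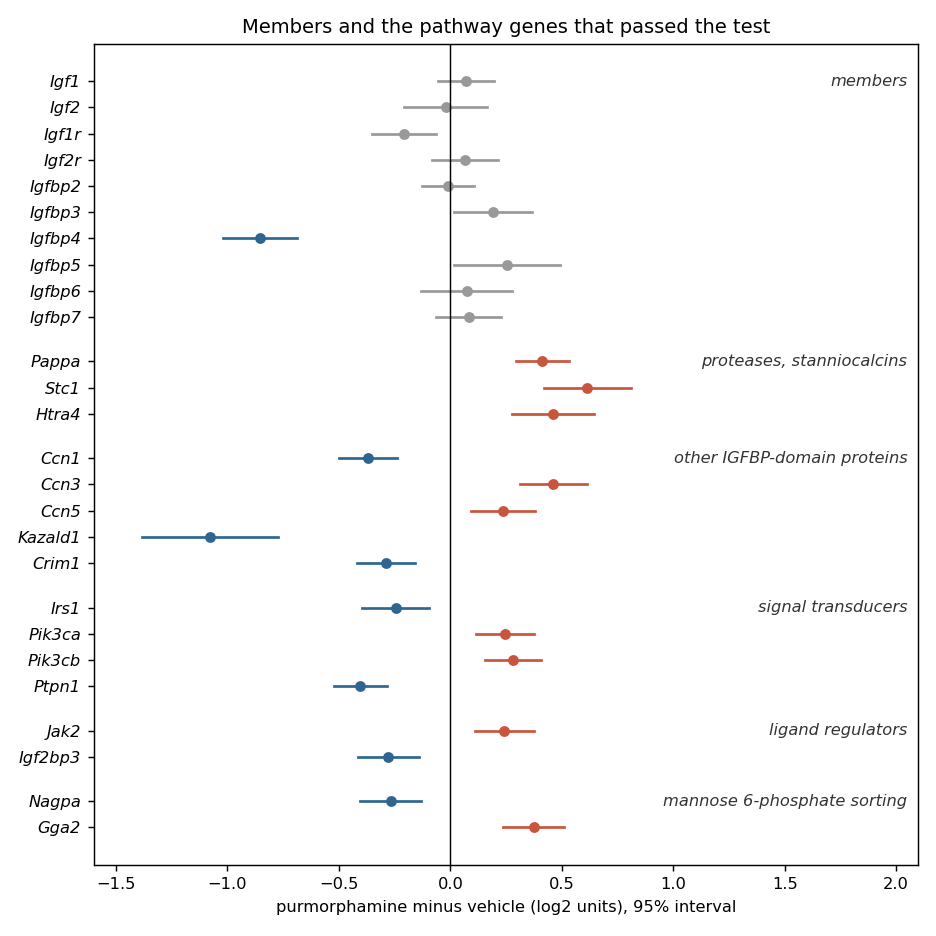
Purmorphamine minus vehicle in log2 units, with 95% intervals from limma, for the 10 members and for the pathway genes that passed the test, grouped by role; blue marks a fall, red a rise and grey a gene that did not pass. Igfbp4 (-0.85) lies apart from the other members (-0.21 to 0.25), near Kazald1 (-1.08), while Pappa, Stc1 and Htra4 lie between 0.41 and 0.61.

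Members differed in how far their calls depended on the settings. Igfbp4 passed throughout and Igfbp3 did not pass under any setting tried, with its lowest limma adjusted p at 0.0623. Igf1r and Igfbp5 crossed the threshold under the settings given above.

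**Figure D4:**
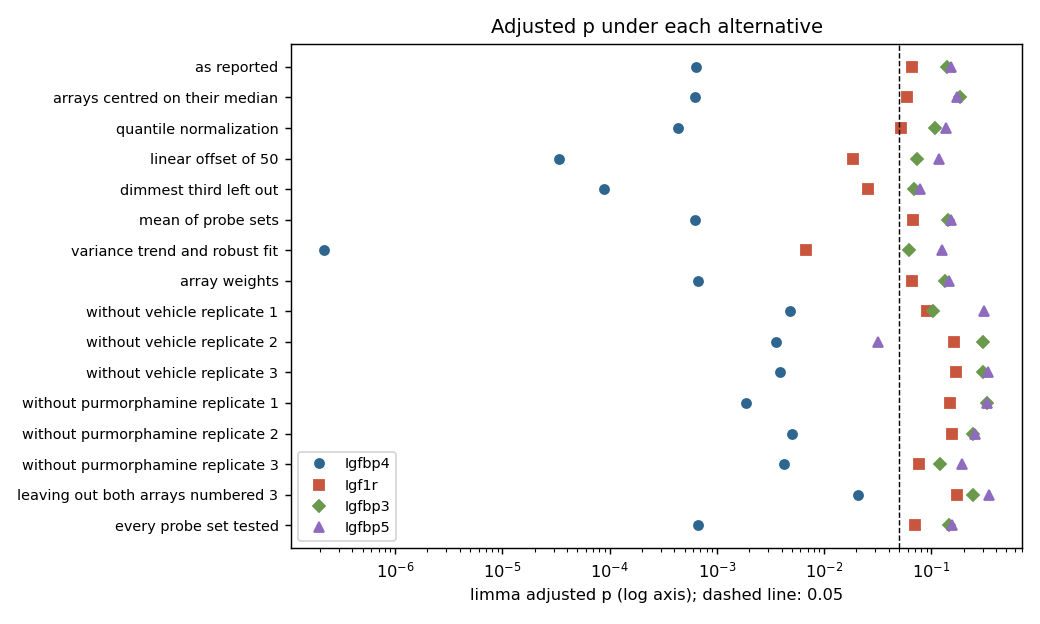
Limma adjusted p (log axis) of Igfbp4, Igf1r, Igfbp3 and Igfbp5 as reported and under alternative settings, one per line, with the threshold of 0.05 dashed. Igfbp4 stays left of the line throughout, Igf1r crosses it under 3 settings (0.00674 to 0.0258) and Igfbp5 only without vehicle replicate 2 (0.0319).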

How the data were processed

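Affymetrix arrays were read from 6 wells, 3 per group, after amplification of 100 ng of total RNA primed at the poly(A) tail, per the labels' protocols. Each probe set has 1 log2 value per array in the table the authors deposited. Per the submitters' processing notes, oligo, RMA and limma were used; their versions were not given in the sources read. RMA equalises the distribution of the arrays, which hides any shift shared by all transcripts. Of 41345 probe sets, 23521 had 1 symbol in the platform annotation, 1814 several and 16010 none, and the first kind was used. Each of 22180 genes was represented by its brightest probe set, by the mean of all 6 arrays. The groups were compared with limma 3.58.1 (lmFit, eBayes) under R 4.3.3, two-sided, without a block. Intervals are at 95%, and the number of arrays limits the precision (median SE 0.0735). Of these steps, only the limma comparison was tested on simulated data. The simulated noise was independent between arrays, so a deviation shared by arrays was not covered. Python 3.11.15, pandas 2.3.3 and matplotlib 3.10.9 were used for tables and plots.

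The members and lists were chosen with earlier results of these data known. All members are named, with at most 4 called genes of each other pathway list by p, and Ccn5, Insr and some uncalled genes were named after their values were seen. The named leukocyte markers were not picked by that rule. Promoter sequences are from RefSeq (GRCm38.p6), matched by symbol for 10 of 10 members. Of 64 listed pathway genes, 7 had no probe set with a single symbol and were not used here. The alternatives were median centring, quantile normalization, an offset of 50 on the linear scale, a filter on the dimmest 0.333 of genes, averaged probe sets, every probe set as a test, a variance trend with a robust fit, a replicate block, array weights, each array left out, other thresholds and, chosen after seeing the data, leaving out both arrays numbered 3.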

Additional observations from a re-analysis of the deposited data

How the results depend on the processing

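The 1 call among the members became 2 with a linear offset of 50, with the dimmest genes left out, with the variance trend and robust fit and at an adjusted p under 0.1 (each adding Igf1r). With 1 array left out there were 1 or 2 (2 without vehicle replicate 2, adding Igfbp5). Differences that turned sign, none of them called, were those of Igf2 (-0.0905 to 0.0184 with 1 array left out, and 0.0545 without both arrays numbered 3), Igfbp2 (0.0028 with quantile normalization, -0.021 to 0.0093 with 1 array left out) and Igfbp6 (-0.012 to 0.13 with 1 array left out, -0.031 without both arrays numbered 3). The 16 calls among other pathway genes were 9 to 12 with 1 array left out (10 without vehicle replicate 2 or 3, 9 without purmorphamine replicate 1 or 3) and 5 without both arrays numbered 3, where there are fewer samples. Over all genes, 3181 calls became 1967 to 2374 with 1 array left out, 951 without both arrays numbered 3 and 525 at a fold of at least 1.5. They became 4456 with the linear offset, 4342 with the dimmest genes left out, 4697 with the variance trend and robust fit and 4554 at an adjusted p under 0.1, and under the first 3 of these settings 21, 21 and 22 pathway genes were called. Of the 16 pathway genes, 8 kept their call with each array left out, and 0 turned direction under any alternative. With the replicate number as a block, Igfbp4 passed at a limma adjusted p of 0.00624, the members called stayed at 1, 12 pathway genes and 2432 genes in all were called, and Irs1, Jak2, Nagpa, Ccn5 and the neighbouring gene Tns4 missed the threshold (0.0532, 0.0673, 0.0659, 0.0847 and 0.0602). The numbers are not known to pair wells: deviations of same-numbered arrays correlated across genes at 0.106, 0.024 and 0.103, although each array correlated best with its own number. Scaling moved the median of all genes by less than 0.1.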

Other observations

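The protein-coding genes next to the members in the RefSeq order were also read. Of 18 such neighbours 15 had a named probe set, and 3 fell and 0 rose, where 7.16% of all genes fell. The neighbours of Igfbp4 on chromosome 11 both fell: Top2a, the DNA topoisomerase of dividing cells, from 10.71 ± 0.0046 to 10.06 ± 0.056 (SD, n = 3), by 0.65 (limma adjusted p = 5.67e-04), and Tns4, a focal adhesion protein, from 7.58 ± 0.053 to 7.33 ± 0.089, by 0.25 (0.0440). Without both arrays numbered 3 the adjusted p was 0.0216 for Top2a and 0.102 for Tns4. Tns4 also missed the test without any 1 array but purmorphamine replicate 3 (0.0711 to 0.137). The third was Adgrl3, an adhesion receptor gene beside Igfbp7, which fell by 0.44 (0.00267), with 0.0503 without both arrays numbered 3. Igfbp2 and Igfbp5 are each other's neighbours on chromosome 1 and differed by -0.010 and 0.25, and Igfbp1, next to Igfbp3, differed by -0.03, none of them past the test. Neighbours were named after their values were seen.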
